A study of Mus musculus with 8 samples.

Results

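A set of 9 genes with large differences between exposed and control thyroids and with little described role in the thyroid were followed across the arrays of a radiation study in mice. They are Celf5, Zfp365, Psapl1, Nkx2-9, 1700007K13Rik, 4632434I11Rik, 6530418L21Rik, 9030617O03Rik and Map3k6. The 9 genes were chosen by name from earlier results of these same arrays, for higher signal in the exposed thyroids, so their difference between the groups is given here as a description and was not tested. They are 9 of 21026 genes read by a RefSeq probe, and the array carries 14 probes for them among 55681. One spot was printed for each of the 14 probes, and none was removed by a filter on dim signal.

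Thyroids came from female Balb/c mice aged 8 weeks. The exposed group was given 99mTcO4-, the pertechnetate ion of technetium, which thyroid cells take up through the sodium/iodide symporter, and its thyroids absorbed 30 Gy. RNA was taken 24 hours after administration from 4 exposed thyroids (named S539, S588, S589 and S590) and from 4 controls (numbered 1 to 4), which the study calls untreated in its results and given saline in a legend. Each RNA was hybridised to its own one-colour Agilent array. All arrays lay on 1 slide and the exposed thyroids took the first positions, so that position and exposure cannot be told apart.

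Ionizing radiation breaks DNA and activates the transcription factor p53, which binds a degenerate decamer, usually present as a pair, near its target genes and raises the transcription of cell cycle inhibitors, apoptosis genes and repair factors. The thyroid is built of follicles lined by thyrocytes, which make thyroglobulin and iodinate it. The 9 genes have varied textbook roles. The array's 1700007K13Rik is the gene later called Pierce1, linked to motile cilia and to left-right patterning, and the RefSeq table gives Rbest47 as its synonym. The table names 4632434I11Rik as Ddias (DNA damage-induced apoptosis suppressor, also noxin), 6530418L21Rik as Inka2, an inhibitor of a p21-activated kinase, and 9030617O03Rik as Dglucy, the mitochondrial D-glutamate cyclase. Zfp365 encodes a zinc finger protein linked to the centrosome and to recovery from replication stress. Nkx2-9 is a homeobox transcription factor of the embryonic neural tube and foregut, Celf5 an RNA-binding protein of neurons, Psapl1 a relative of prosaposin, the precursor of the lysosomal saposins, and Map3k6 (ASK2) a stress-activated kinase of the MAP kinase cascade.

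As a check of tissue, 9 of 10 thyrocyte markers were well above background on all 8 arrays, including thyroglobulin (Tg, 18.85 ± 0.10 in controls and 18.90 ± 0.16 in exposed thyroids, log2 signal, SD, n = 4). Of these, 2, the iodide symporter Slc5a5 and the deiodinase Dio1, were called lower after exposure (adjusted p = 0.0137 and 0.0153, limma). Markers of C cells (4 of 5), parathyroid (4 of 4), skeletal muscle (8 of 8) and adipocytes (6 of 6) were also well above background on every array. The controls split by summed thymocyte signal, with 14.44 and 13.76 in controls 1 and 2 and 8.34 and 8.26 in controls 3 and 4. Over the exposed thyroids it ranged from 8.71 to 9.89. T cell markers split the controls in the same way (15.83 and 14.80 against 12.79 and 12.62). What this split does to the control values of the 9 genes was not tested. For skeletal muscle the summed signal ranged from 19.50 to 20.64 over the controls and from 18.40 (S539) to 20.19 over the exposed thyroids. For neutrophils the ranges were 11.25 to 11.54 and 11.13 to 15.49 (S588). Between 60.5% and 75.01% of the spots on control arrays and between 70.9% and 77.3% on exposed arrays were well above background. In a whole organ, fewer cells of a type and less RNA per cell cannot be told apart.

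Values below are quantile-normalized signals on the log2 scale, given in the order control 1 to 4 and then S539, S588, S589 and S590. Where a gene has several probes, its leading probe is the RefSeq probe of highest mean signal. The lowest exposed value exceeded the highest control value for the leading probes of 9 of 9 genes and for 13 of the 14 probes. Over all genes this held for 5.44%. Since the genes were chosen on this difference, nothing is read from that count. The median difference of the 9 leading probes was 3.53, beside -0.03 over all 21026 genes.

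**Figure D1:**
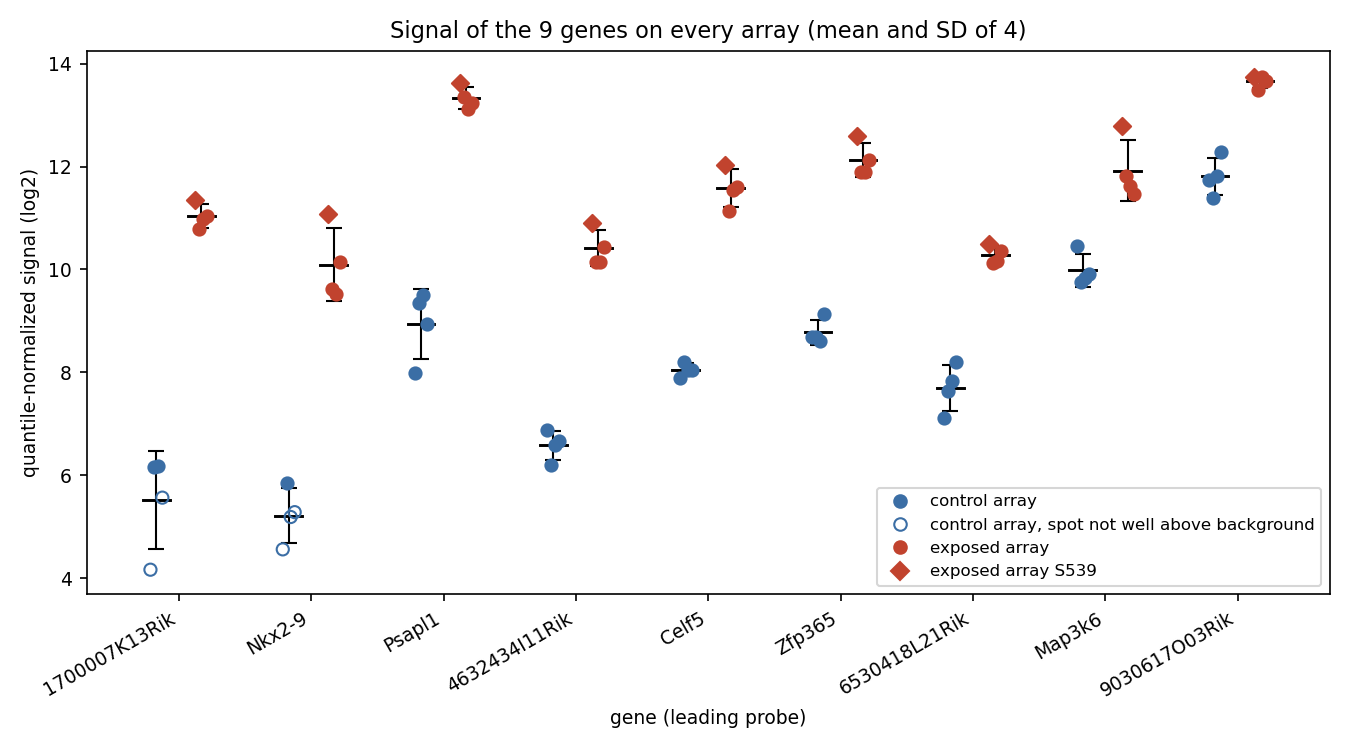
Quantile-normalized log2 signal (vertical axis) of the leading probe of each of the 9 genes (horizontal axis) on 4 control arrays (blue) and 4 exposed arrays (red), with the mean and SD of each group. Open circles are control spots not well above background, and diamonds are S539, which is the highest exposed array for all 9 genes.

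1700007K13Rik, 4632434I11Rik and Zfp365 are taken first. The signal of 1700007K13Rik was 4.17, 6.17, 6.17 and 5.57 in the controls and 11.35, 10.79, 10.97 and 11.04 in the exposed thyroids. The control spots were dim and scattered, and those of controls 1 and 4 were not well above background, whereas the exposed arrays lay close together and far above. The group means were 5.52 ± 0.95 and 11.04 ± 0.23 (SD, n = 4), a difference of 5.52 or 45.9-fold. With dim controls this size depends on how background is treated, and it was 4.18 or 18.2-fold with normexp background correction. By size it ranked 1 of 21026 genes, and 2 with normexp. The probe lies at chr2:28317523-28317582 (minus strand, mm9).

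4632434I11Rik (Ddias), whose probe lies at chr7:100006950-100007009 (minus strand, mm9), had signals of 6.88, 6.20, 6.58 and 6.67 in the controls and of 10.90, 10.15, 10.15 and 10.44 in the exposed thyroids. Controls and exposed arrays each fell within a narrow band, and no value of one group came near the other. The difference was 3.83, or 14.2-fold (6.58 ± 0.28 against 10.41 ± 0.35, SD, n = 4). With normexp it was 2.99 or 7.96-fold, and the rank among all genes moved from 11 to 15. Zfp365 (chr10:67348908-67348967, minus strand, mm9) stood at 8.69, 8.69, 8.60 and 9.13 in the controls and at 12.60, 11.89, 11.90 and 12.13 after exposure. Here 3 controls were nearly equal and control 4 lay above them, still well below every exposed array. The means were 8.78 ± 0.24 and 12.13 ± 0.33 (SD, n = 4), a difference of 3.35 or 10.2-fold.

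The next genes encode regulators of transcription and of RNA processing. Nkx2-9 (chr12:57712410-57712469, minus strand, mm9) read 4.56, 5.84, 5.19 and 5.29 in the controls, where only control 2 was well above background, and 11.08, 9.63, 9.53 and 10.15 in the exposed thyroids. Thus a transcript at or near background in most control thyroids was plainly detected in all 4 exposed ones, with S539 more than 1 log2 unit above S588 and S589. The difference was 4.88 or 29.4-fold (5.22 ± 0.53 against 10.10 ± 0.71, SD, n = 4), a size that rests on control spots mostly not well above background. With normexp it was 3.32 or 9.96-fold, and the rank among all genes moved from 3 to 7.

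Celf5, on chromosome 10, is the only one of the 9 genes with 3 probes, and these disagreed in size. They match the same transcript at positions 617, 1657 and 4301, as the array files give them. The first 30 bases of each 60-base probe are shown so that the 3 targets can be told apart:

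Celf5 probe at position 617: aagtttgccgacacggataaagagcggaca

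Celf5 probe at position 1657: aggggacttccttcccagggaaagttttga

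Celf5 probe at position 4301: ggcaaatcacctctccttggtctggaaaag

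The probe at position 4301 (chr10:80922002-80922061, minus strand, mm9), which leads, read 7.90, 8.20, 8.05 and 8.04 in the controls and 12.03, 11.14, 11.54 and 11.61 after exposure. The controls agreed closely, and the exposed arrays were all higher, with a difference of 3.53 or 11.6-fold (8.05 ± 0.13 against 11.58 ± 0.37, SD, n = 4). At position 1657 the difference was 3.11, with 1 of 4 control spots well above background. At position 617 the signals were 5.68, 6.41, 4.83 and 3.17 in the controls and 6.48, 5.91, 5.80 and 5.89 in the exposed thyroids, a difference of 1.00. This is the only one of the 14 probes whose groups overlap, since control 2 exceeded 3 of the 4 exposed arrays, and only controls 1 and 2 were well above background. No splice form can be assigned from these probes, and the difference between them was not tested.

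**Figure D2:**
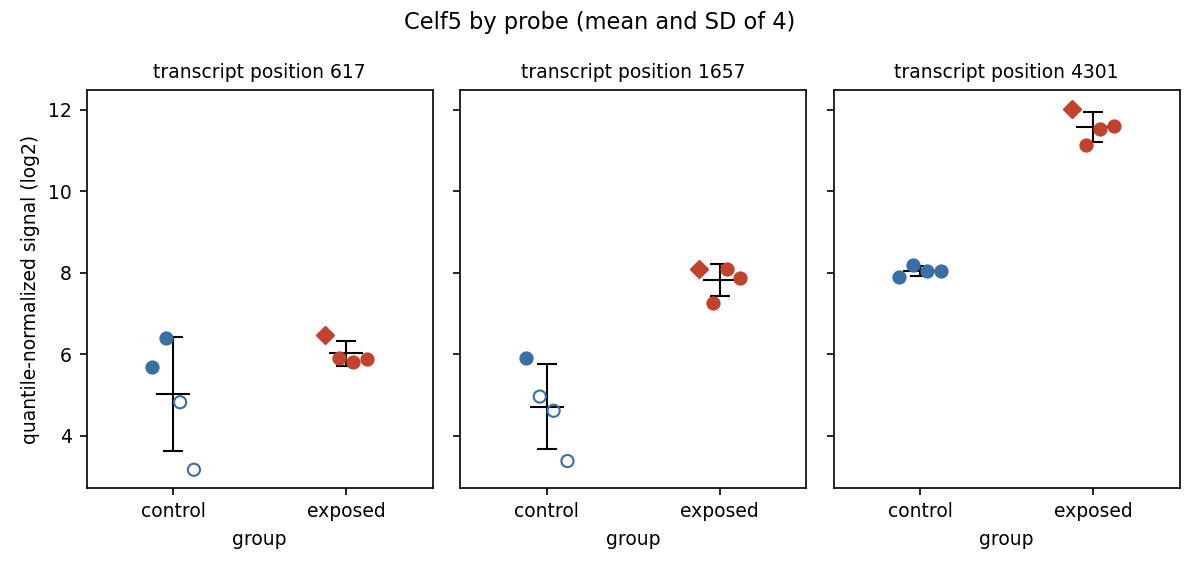
Log2 signal (vertical axis) of the 3 Celf5 probes by group (horizontal axis), one panel per position in the transcript, with the mean and SD of 4 arrays. Open circles are control spots not well above background and diamonds are S539. The groups overlap at position 617 and are apart at positions 1657 and 4301.

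The remaining 4 genes encode a saposin relative, a kinase, a kinase inhibitor and a metabolic enzyme. Psapl1 (chr5:36548795-36548854, plus strand, mm9) was well above background on all 8 arrays, at 7.99, 9.35, 9.50 and 8.93 in the controls and 13.62, 13.35, 13.11 and 13.23 in the exposed thyroids. Control 1 was the lowest by almost 1 log2 unit, and the exposed arrays were tightly grouped. The difference was 4.39 or 20.9-fold (8.94 ± 0.68 against 13.33 ± 0.22, SD, n = 4), rank 5 of all genes.

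The kinase Map3k6 was already bright in the controls. Its leading probe (chr4:132808672-132808731, plus strand, mm9) read 10.46, 9.75, 9.83 and 9.91 in the controls and 12.79, 11.81, 11.62 and 11.47 after exposure. S539 stood about 1 log2 unit above the other exposed arrays, and the lowest of these was 1.01 above the highest control. The difference was 1.94 or 3.83-fold (9.99 ± 0.32 against 11.92 ± 0.60, SD, n = 4), and a probe without a RefSeq accession gave 1.98.

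6530418L21Rik (Inka2) read 7.12, 7.64, 7.83 and 8.21 in the controls and 10.50, 10.13, 10.16 and 10.36 in the exposed thyroids with its leading probe (chr3:105521608-105521667, plus strand, mm9). The exposed values spanned less than the controls did, and the difference was 2.59 or 6.02-fold (7.70 ± 0.45 against 10.29 ± 0.18, SD, n = 4). The other probe of this gene gave 2.56. 9030617O03Rik (Dglucy) read 11.74, 11.38, 11.82 and 12.28 in the controls and 13.74, 13.49, 13.73 and 13.65 after exposure (chr12:102110492-102110551, plus strand, mm9). The exposed arrays were nearly equal and lay 1.21 or more above the highest control. The difference was 1.85 or 3.59-fold (11.81 ± 0.37 against 13.65 ± 0.12, SD, n = 4), with 2.16 for the other probe. By size of difference, Map3k6 and 9030617O03Rik ranked 122 and 139 among all genes and the other 7 between 1 and 43. Which of these 2 had the smaller difference turned with the setting, since with normexp Map3k6 gave 1.79 and 9030617O03Rik 1.90, and without S539 1.65 and 1.82.

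S539 was the highest exposed array for 9 of 9 leading probes. It was the highest for 36.04% of the 16097 genes well above background on all exposed arrays, for 75.7% of the 181 other genes called higher after exposure, and for 17 of 20 known p53 target genes. The excess of S539 over the mean of the other 3 exposed arrays was 1.30 for Nkx2-9, 1.16 for Map3k6, and between 0.12 (9030617O03Rik) and 0.65 (4632434I11Rik) for the rest, with a median of 0.60 beside 0.49 for the p53 targets, 0.36 for the genes called higher and 0.05 over all genes. Without S539 the differences were 5.42 for 1700007K13Rik, 4.55 for Nkx2-9, 4.29 for Psapl1, 3.66 for 4632434I11Rik and 3.38 for Celf5. They were 3.20 for Zfp365, 2.52 for 6530418L21Rik, 1.82 for 9030617O03Rik and 1.65 for Map3k6. Leaving out the highest exposed array cannot bring the groups to overlap, so their separation without S539 is no check. S588, S589 and S590 were lowest for 5, 3 and 1 of the genes. The share of spots well above background on S539 was 71.8%, within the range of the other exposed arrays.

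**Figure D3:**
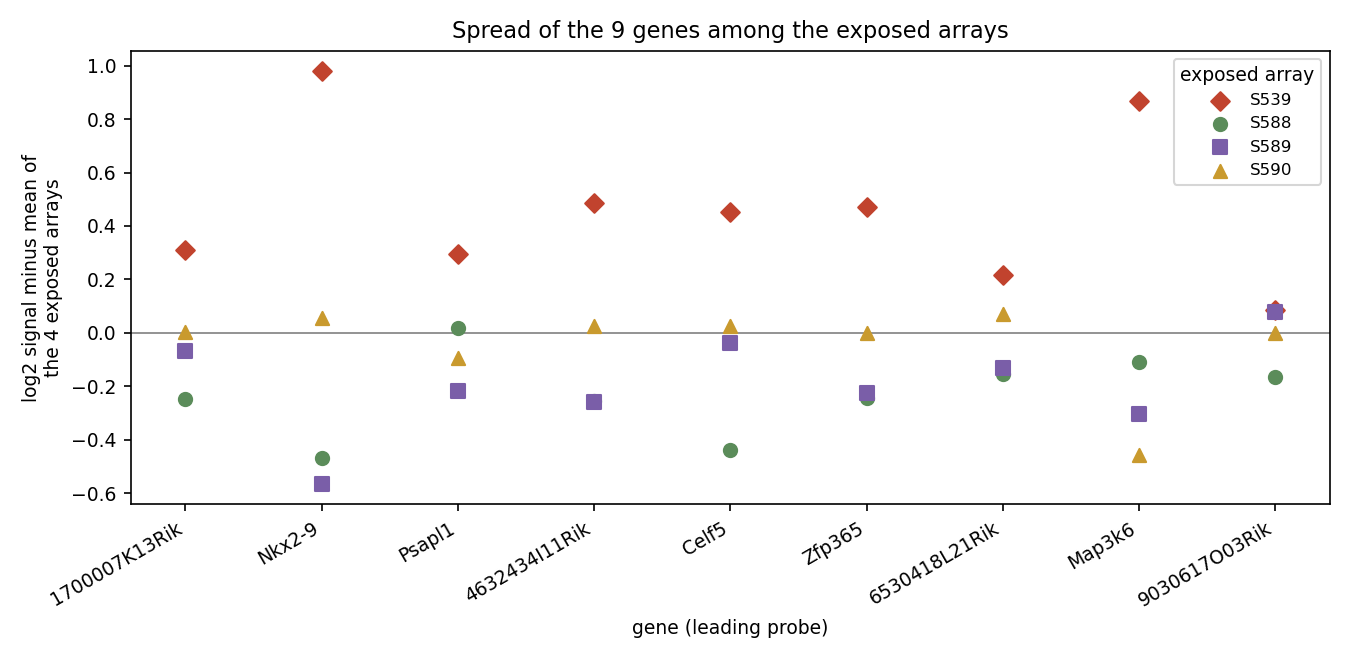
Log2 signal on each exposed array minus the mean of the 4 exposed arrays (vertical axis) for the leading probe of each of the 9 genes (horizontal axis). S539 (diamonds) is at the top for all 9, farthest for Nkx2-9 and Map3k6, and is almost level with S589 for 9030617O03Rik.

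For each gene, the genes with the most similar pattern were found by Pearson's r over the 8 arrays among 16280 genes. These values mostly carry the gap between the 2 groups, which all the genes share, and are given as a description. Psapl1 and 1700007K13Rik were each other's closest match (r = 0.999), and Slc23a1, a vitamin C transporter, came next for both (0.997 and 0.995). The p53 targets Bax, an apoptosis effector, and Bbc3 (Puma), which activates it, were closest to 4632434I11Rik (r = 0.999) and to Celf5 (r = 0.996). Plk5 and Gfer were closest to Zfp365 (both r = 0.997), Mab21l3 (0.998) and Homer3 (0.994) to Nkx2-9, and Slc19a2 and Dnm3 (both 0.996) to 6530418L21Rik. The p53-induced ribosomal protein gene Rps27l was second for 9030617O03Rik (0.988) after Cd55b (0.994), and Map3k6 had the least close matches, Vps36 (0.989) and Ppp2r5d (0.988). Lcn5 (0.998) and Dcxr (0.995) were second for 4632434I11Rik and Celf5. A reference list of p53 targets had 16 of 20 genes called, all higher, beside 1.20% of all genes called in either direction. Its median difference was 1.93. The study had named several of these targets from the same arrays, so the list is not independent evidence of its direction.

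The promoters of the 9 genes were read from RefSeq (assembly GRCm38.p6), as windows from 250 bases before to 50 after each transcript start. All 9 genes were found, with 14 windows, of which Celf5 has 5 and 6530418L21Rik 2. The p53 decamer consensus, which reads the same on both strands, was present in windows of 5 genes (5 of 14 windows), and in 8.36% of all 32851 windows. Distances are those of the first base of the decamer, so that the Psapl1 match runs across the transcript start. Each match is shown as 30 bases in the direction of transcription, with the decamer in capitals:

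1700007K13Rik, 91 bases before the start, chr2:28466396-28466425, minus strand: ggaagattctAGACTTGCCTacagctagct

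1700007K13Rik, 30 bases after the start, chr2:28466275-28466304, minus strand: gacttgatctGGGCTAGTTTcctgcgggag

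Celf5, 182 bases before the start, chr10:81482862-81482891, minus strand: tctttctgatGGGCATGCCCagcctgaagt

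6530418L21Rik, 81 bases before the start, chr3:105705367-105705396, plus strand: ctgtctgcccGGGCTTGTCTgccagcaggg

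Nkx2-9, 24 bases before the start, chr12:56613289-56613318, minus strand: ggcaccttccGGACTTGCCCcggcttcgct

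Psapl1, 4 bases before the start, chr5:36204007-36204036, plus strand: ctagacaggaGAGCTAGTTTtatagcgaga

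The windows of 4632434I11Rik, Zfp365, 9030617O03Rik and Map3k6 do not hold the decamer. A match is a description of letters and not a measured binding site. The other motifs below were searched on both strands. GGGCGG was in 8 of 14 windows (5 genes) and 35.7% of all windows, CCAAT in 4 and 37.4%, TATAAA in 3 and 13.6%, TTTGAA in 3 and 17.9%, CAAGTG in 2 and 13.6%, and TGACTCA in the Psapl1 window and 5.20%. TGACGTCA (1.79% of all windows) and TTGGCGC (2.45%) were in none of the 14.

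The relatives of the 9 genes were then asked whether they differed too, a comparison that the choice of the 9 did not use. The lists of relatives were themselves drawn up with earlier results of these data known. Of 113 genes listed in 8 families, 111 were measured, and 1 was called at an adjusted p below 0.05 (0.901%), beside 1.20% of all 21026 genes. The median difference of the relatives was 0.04. At an unadjusted p below 0.05 there were 24 (21.6%), beside 14.6% of all genes, a share against which the counts per family below may be read, and the methods' t-test (which they do not name for the arrays) called 0 after Benjamini-Hochberg adjustment. The one called gene was Foxj1, the transcription factor that commits epithelial cells to motile cilia. Its signal was 7.04, 7.53, 7.50 and 6.29 in the controls and 10.10, 9.08, 9.60 and 9.54 in the exposed thyroids, with no overlap, a difference of 2.49 (SE 0.33, adjusted p = 0.0213, limma). The adjusted p was 0.0573 without control 2, 0.0663 without S539, 0.0810 without S589 and 0.0734 without S590, and lay between 0.0335 and 0.0474 without each of the other 4 arrays.

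Foxj1 was the only one of 14 measured axoneme and ciliogenesis genes called. Tekt1, a tektin of the axoneme, had a lower mean after exposure (12.58 ± 0.78 against 10.76 ± 0.21, SD, n = 4, difference -1.83, adjusted p = 0.0899), and the dynein heavy chain Dnah11 a higher one (difference 0.97, adjusted p = 0.376). Neither passed the test. Among 7 markers of ciliated epithelium, 1 of 7 was called, Foxj1 itself, Dnah9 was well above background on no array, and the summed signal ranged from 12.20 to 13.68 over the controls and from 11.81 to 12.19 over the exposed thyroids.

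No gene of the other 7 families was called by limma. Among the 12 CELF, MBNL and ELAV-like relatives of Celf5, 2 had an unadjusted p below 0.05, and the other CELF genes (Celf1, Celf2, Celf3, Celf4 and Celf6) had differences between -0.10 and 0.28. The largest differences among those detected on all arrays were -1.44 for the splicing regulator Mbnl3 (adjusted p = 0.126) and 0.89 for the neuronal RNA-binding protein Elavl3 (0.421). Neuron and glia markers, of which 0 of 9 were called, summed to between 14.66 and 15.40 over the controls and 14.99 and 16.29 over the exposed thyroids, and their part in the Celf5 values was not tested.

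Of 14 genes of sphingolipid breakdown, prosaposin itself (Psap) had a difference of -0.26 (adjusted p = 0.534) and the lysosomal membrane protein Scarb2 0.56 (0.175). Of the 14, 4 had an unadjusted p below 0.05. Of 14 NK2 and foregut factors, 1 had one, the cardiac factor Nkx2-5 (-1.05, adjusted p = 0.171), and the thyroid factor Foxe1 gave -0.85 (0.499). Of 26 MAP3K family members and the kinases below them, 4 had an unadjusted p below 0.05. Map3k5 (ASK1) and Map3k15 (ASK3), the closest relatives of Map3k6, had differences of -0.41 (0.570) and 0.24 (0.619), the p38 kinase Mapk13 0.91 (0.0728) and the p38 activator Map2k6 -1.25 (0.372).

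Of 9 INKA and p21-activated kinase genes, 2 had an unadjusted p below 0.05. Inka1 gave -0.82 (adjusted p = 0.388), Pak6 0.59 (0.419) and Pak4, the kinase that INKA proteins inhibit, -0.04 (0.962). Of 8 enzymes of D-amino acids and glutamate, the glutaminase Gls2 gave 0.65 (0.315) and glutamine synthetase Glul 0.63 (0.278), with 3 of 8 at an unadjusted p below 0.05. The last list joined single-strand DNA binding genes with partners of Zfp365, as relatives of 4632434I11Rik and Zfp365. Of its 14 genes, 4 had an unadjusted p below 0.05. Pafah1b1, a regulator of dynein, gave 0.52 (adjusted p = 0.178, limma) and the DNA break sensor Parp1 -0.50 (0.331).

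The genes beside the 9 on the chromosome, 2 measured genes on each side, were compared in the same fit. Of 36 neighbours, 1 was called (2.78%, beside 1.20% of all genes) and 4 had an unadjusted p below 0.05 (11.1%, beside 14.6%), with a median difference of 0.07 and a range from -1.08 to 1.57. The called neighbour was Fam181b, second from 4632434I11Rik and 204962 bases away from it. Fam181b read 11.22 ± 0.26 in controls and 12.79 ± 0.23 in exposed thyroids (SD, n = 4, difference 1.57, SE 0.19, adjusted p = 0.0151, limma). Its adjusted p was 0.0551 without control 2, 0.0521 without S589 and 0.0625 without S590. Sytl1, a synaptotagmin-like protein gene next to Map3k6, had a difference of 1.48 that did not pass (11.12 ± 0.34 against 12.60 ± 0.40, SD, n = 4, adjusted p = 0.0535, limma). It passed with the deposited values (0.0108), normexp (0.0158), no background correction (0.0164) and a variance trend (0.0211). The dim filter (0.0226), array weights (0.0379) and the 75th percentile (0.0442) also let it pass. Without outlier-marked spots (0.0524), with the methods' t-test (0.104) or without any 1 array (0.076 to 0.128) it did not pass. The other neighbours with an unadjusted p below 0.05 were Prcp and the potassium channel gene Kcnd3. Prcp, 336 bases from 4632434I11Rik, gave 0.52 (adjusted p = 0.313, limma), and Kcnd3, second from 6530418L21Rik, -0.75 (0.150). Mrps2, which overlaps 1700007K13Rik, gave 0.16 (adjusted p = 0.697), and Sorcs2, which overlaps Psapl1, 0.13 (0.841). The thyroid factor Nkx2-1 and Pax9, which flank Nkx2-9, had differences of -0.09 (0.890) and -0.05 (0.958).

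**Figure D4:**
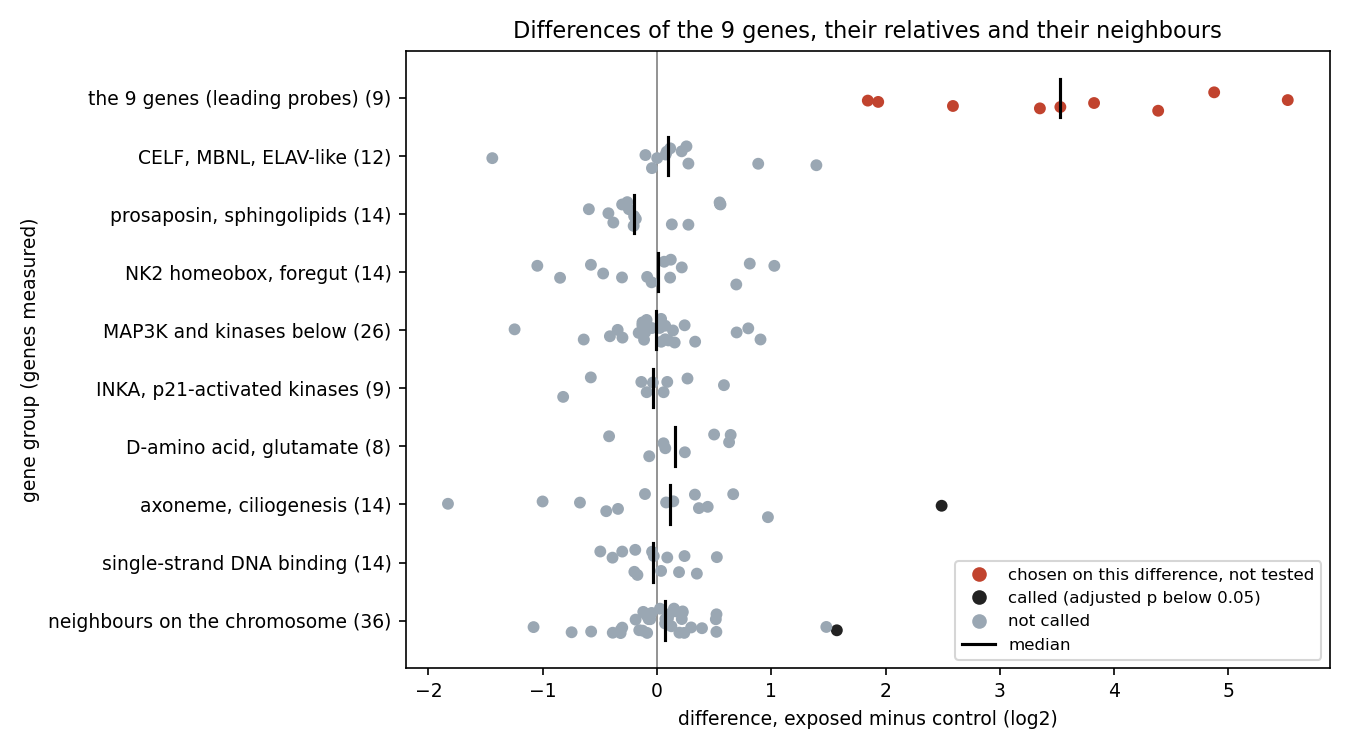
Difference between exposed and control thyroids in log2 signal (horizontal axis) for the 9 genes, 8 families of relatives and the 36 neighbours (vertical axis, with the number of genes measured), 1 point per gene and the median as a line. The 9 genes, chosen on this difference, lie between 1.85 and 5.52, family medians lie between -0.20 and 0.16, and the called genes are Foxj1 and Fam181b.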

How the data were processed

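RNA of 8 mouse thyroids was labelled with Cy3 and hybridised to SurePrint G3 8x60K arrays. The authors deposited the scanner output, with the intensity of each spot as made by Feature Extraction 10.7.3.1, and a table of log2 values, which equalled the quantile-normalized log2 median signal within 0.0378. Their methods name quantile normalization in limma and no background correction.

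Here control spots were left out, the processed signal (background already subtracted) was log2-transformed and quantile-normalized, and replicate spots of a probe were averaged. R 4.3.3 and limma 3.58.1 (lmFit, eBayes) compared 4 exposed with 4 control arrays over 55681 probes, with Benjamini-Hochberg adjustment and a threshold of 0.05, which 435 probes passed. The procedure was tested on simulated data. A gene was read by its RefSeq probe of highest mean signal (27220 of 27752 accessions matched the GRCm38.p6 table, used for names and order). Probe positions are in mm9, the array files' build. Exons and UTRs were not analysed here.

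The 9 genes, gene lists and tests were chosen with earlier results of these data known. Text names every called relative or neighbour and, in lists with under 2 calls, the 2 largest differences among genes detected on all arrays. One gene that this rule names is not reported here. Other genes (each gene's closest relatives, the genes flanking or overlapping it Sytl1 and Kcnd3) were named after their values were seen. Promoter motifs were counted with 250 bases before and 50 after each start. Alternatives were scaling to the 75th percentile, normexp (offset 50), no background correction, deposited values, leaving out spots with outlier marks, a filter on dim probes, a variance trend, array weights, the methods' t-test (named there for comparisons of 2 conditions in general and not for the arrays), averaging a gene's probes and leaving out each array. The number of arrays limits the precision. Mice were separate animals per the labels.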

Additional observations from a re-analysis of the deposited data

Results flagged for a closer look

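Each of the 14 probes was looked at within each group of 4 arrays, and in 2 of these 28 sets a single array stood apart from the other 3 by Dixon's ratio, where chance alone flags about 1.4. For the Celf5 probe at position 617, S539 read 6.48 and the other exposed arrays 5.80 to 5.91. For Zfp365, control 4 read 9.13 and the other controls 8.60 to 8.69.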

How the results depend on the processing

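The lowest exposed value exceeded the highest control value for 9 of 9 genes with 75th percentile scaling, normexp, no background correction and the deposited values. The same held when all probes of a gene were averaged. Leaving out 1 array or the outlier-marked spots only takes values away and cannot undo this separation, so nothing is read from those settings. No member's difference changed sign. The median difference of the 9 fell from 3.53 to 3.07 with normexp and 3.12 without background correction. With normexp, without background correction and with the deposited values, the differences of 1700007K13Rik (4.18, 4.42 and 4.46), Nkx2-9 (3.32, 3.46 and 3.56) and 4632434I11Rik (2.99, 3.12 and 3.21) were smaller, and Celf5 gave 2.55 when its 3 probes were averaged. Leaving out 1 array at a time, the 9 differences lay between 1.65 and 5.74. S539 was highest for 8 of 9 with normexp, without background correction and with the deposited values, a count added, with the ranks of the 9 among all genes, after seeing the data.

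Counts of calls moved more. Over all probes, 435 became 856 with normexp, 827 without background correction, 955 with the deposited values, 733 with the filter on dim probes, 744 with a variance trend, 959 with array weights, 289 with the methods' t-test after adjustment (6962 before it) and 100 to 481 without 1 array. Called relatives numbered 4 (2 of them higher) with normexp, no background correction or the deposited values. They numbered 3 (2 higher) with the dim filter or variance trend and 2 (1 higher) with array weights. The t-test called 0 (22 before adjustment). Without 1 array they numbered 0 to 3, and of the 3 without control 1, 1 was higher. The rest of these calls were lower after exposure. Called neighbours numbered 2 with the 75th percentile, normexp, no background correction, the deposited values, the dim filter, variance trend, array weights or averaged probes, and 0 to 1 without 1 array. The cause was not tested. Exposed and control thyroids came from different mice, so the design held no pairs to analyse. Signal near background limits 1700007K13Rik, Nkx2-9 and 2 Celf5 probes in the controls.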
